A study of Mus musculus with 4 samples.

Results

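The genes described here are Trp53, which encodes the mouse p53 protein, and 9 genes that p53 is known to activate directly: Mdm2, Ccng1, Sesn1, Sesn2, Zmat3, Phlda3, Trp53inp1, Aen and Plk2. They were chosen by name, and all 10 were found among the 24421 genes of the deposited tables. RNA was sequenced from 4 tumours, labelled as independent samples, that grew in female BALB/c mice from J558 cells, a plasmacytoma line of the same strain, injected under the skin of the right flank. Vehicle-1 and Vehicle-2 received 0.5% methylcellulose, and TAK-931-1 and TAK-931-2 received TAK-931 at 60 mg/kg, both by mouth once daily, with tumours taken on day 6. TAK-931 inhibits CDC7, a kinase that starts DNA replication. Each tumour held host cells beside the J558 cells, and in such bulk RNA fewer cells of a type and less RNA per cell cannot be told apart.

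p53 is a transcription factor that is kept scarce by MDM2, which marks it for destruction, and that accumulates after DNA damage or stalled replication. It then binds response elements near its target genes, among them Mdm2 itself, which closes a feedback loop. Its targets slow the cell cycle, restrain growth signalling, change RNA processing or favour cell death, and several of them also answer to other stress pathways. The ATF4 branch of the stress response is such a pathway, and Sesn2 is a known target of ATF4 as well as of p53.

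Total counts per library were between 16487902 and 19589339, and expression is given as CPM, counts relative to the library total after TMM scaling. Values are listed in the order Vehicle-1, Vehicle-2, TAK-931-1, TAK-931-2 unless a library is named. The vehicle libraries were alike and the TAK-931 libraries were not: the members differed within the vehicle pair by a median of 0.14 on the log2 CPM scale and within the TAK-931 pair by a median of 0.72, against 0.16 and 0.70 over the 13669 genes tested. The labelled B lymphocyte identity was checked with 10 plasma cell and J558 markers, all of them detected. Their summed level was 10010 and 10590 CPM in vehicle and 5002 and 14030 CPM with TAK-931, and the J558 marker Trap1a was at 1127, 1095, 356 and 1235 CPM. Markers of T cells and macrophages were highest in TAK-931-1 and are given beside the members that were highest there.

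RefSeq promoter sequences (GRCm38.p6) were matched for 8 of the 10 genes (10 windows), and the 250 bases before each annotated start were searched for the p53 decamer consensus, the palindromic unit that p53 response elements repeat. It was found for 5 of the 8 genes (Trp53, Mdm2, Ccng1, Sesn1 and Aen), where 8.20% of all 27025 genes with such windows, and 7.13% of the 32851 windows, held it. The windows of Sesn2, Phlda3 and Plk2 held none, which says only that these letters are not in them. Being palindromic, it matches both strands at once. The stretches of Trp53, Mdm2, Ccng1 and Sesn1 are shown because the results turn on their levels, and Aen is named only. Each runs 5′ to 3′ on the gene's strand, and capitals mark the decamer.
Trp53, chr11:69580259-69580318, plus strand: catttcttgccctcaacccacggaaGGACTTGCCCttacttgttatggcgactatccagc
Mdm2, chr10:117710910-117710969, minus strand: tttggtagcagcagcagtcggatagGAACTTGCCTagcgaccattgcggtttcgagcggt
Ccng1, chr11:40755437-40755496, minus strand: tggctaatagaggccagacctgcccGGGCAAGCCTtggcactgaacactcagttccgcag
Sesn1, chr10:41887241-41887300, plus strand: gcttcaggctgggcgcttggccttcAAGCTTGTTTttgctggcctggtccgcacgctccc
The decamer began 75 bases before the start of Trp53, 186 before that of Mdm2 and 185 before that of Ccng1. In Sesn1 it began 173 bases before an inner start that lies within the gene's span. The ATF4 element TGATGNAA, searched on both strands, was in 3.91% of all genes and 3.45% of all windows, in 5 of 12 genes of an ATF4 list (Asns, Atf3, Chac1, Slc7a11 and Vldlr) and in none of the 8 members with a window. No occupancy was measured, so these matches describe the sequence only.

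The members did not share a direction. Relative to both vehicle tumours, Mdm2, Sesn1, Zmat3, Phlda3 and Plk2 were higher in both TAK-931 tumours, Trp53, Sesn2 and Aen were lower in both, Ccng1 was higher in TAK-931-1 alone, and Trp53inp1 was lower in one and higher in the other. Thus 8 of 10 members did not overlap between groups, 5 of them higher and 3 lower, where 62.7% of all genes tested did not overlap, 30.0% higher and 32.7% lower. In edgeR's quasi-likelihood fit, 0 of 10 members passed an adjusted p of 0.05, as did 0% of the 13669 genes. At an unadjusted p under 0.05 there were 5 members, against 18.1% of all genes. These were Sesn1, Zmat3, Phlda3 and Plk2, which were higher (11.6% of all genes), and Sesn2, which was lower (6.55% of all genes). The median log2 fold change was 0.47 over the members and 0.02 over all genes tested.

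**Figure D1:**
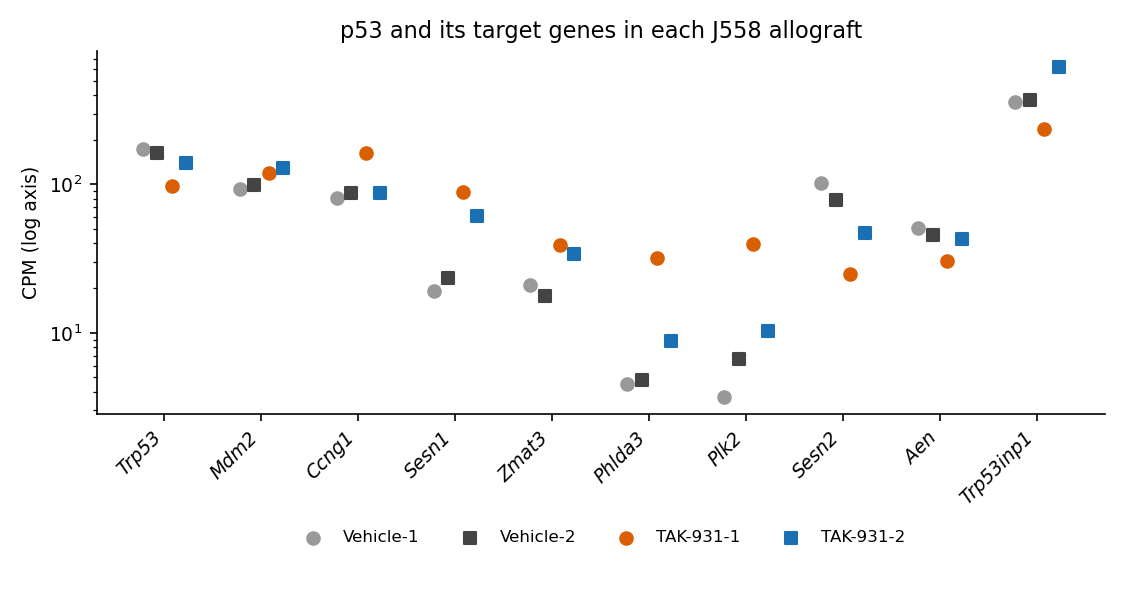
CPM of p53 and 9 of its targets in each of the 4 allografts, on a log axis (circles: replicate 1, squares: replicate 2; grey: vehicle, colours: TAK-931). Sesn1 and Zmat3 were higher and Sesn2 lower in both TAK-931 tumours, while Trp53inp1 was at 236 and 617 CPM in the treated tumours, on either side of the vehicle values.

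Per length, Trp53 and Trp53inp1 were the most abundant members in every group and Zmat3 and Plk2 were among the least. In vehicle tumours the order in TPM (counts per length, scaled within each library; mean ± SD, n = 2) began with Trp53 at 159 ± 7.57 and Trp53inp1 at 119 ± 2.23. Sesn2 at 60.7 ± 11.5 and Mdm2 at 55.1 ± 1.99 followed, and their values overlapped between libraries. Ccng1 at 43.0 ± 2.32, Aen at 33.0 ± 2.70, Sesn1 at 11.2 ± 1.57 and Phlda3 at 5.62 ± 0.227 came next, with no overlap of single library values between neighbours, and Zmat3 at 4.43 ± 0.548 and Plk2 at 3.26 ± 1.32 overlapped. Sesn1 was at rank 7 in vehicle and at rank 5 with TAK-931 (41.6 ± 8.38 TPM), and Sesn2 at rank 3 and rank 7 (25.6 ± 12.4 TPM). In the treated tumours Trp53inp1 (149 ± 101 TPM) and Trp53 (120 ± 37.0 TPM) overlapped, as did Mdm2 (75.4 ± 8.90 TPM) and Ccng1 (66.2 ± 24.5 TPM). Sesn1 ranked between Ccng1 and Aen. Aen (26.9 ± 8.07 TPM), Sesn2, Phlda3 (25.3 ± 19.4 TPM), Plk2 (16.2 ± 12.9 TPM) and Zmat3 (8.74 ± 0.340 TPM) followed in that order, each overlapping the next.

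Trp53 (chromosome 11, 69580359 to 69591873, mm10) was at 173 and 162 CPM in vehicle and 97.7 and 140.0 CPM with TAK-931. Both treated tumours lay below both vehicle tumours, and TAK-931-1 was the lower. The fitted log2 fold change was −0.50 (SE 0.27, 95% interval −1.22 to 0.23), with an edgeR adjusted p of 0.343, so the transcript of p53 itself was not shown to change. It was −0.26 without TAK-931-1 and −0.80 without TAK-931-2. The counts speak of Trp53 RNA, whereas p53 is known to be set largely through the stability of the protein, which was not measured. Wrap53, which lies on the other strand with 1034 bases between the deposited spans, was at 28.8 and 26.5 CPM in vehicle and at 19.2 CPM in each TAK-931 library. The Trp53 to Wrap53 ratio per length was 6.10, 6.22, 5.16 and 7.40 in the same order of libraries.

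The genes whose pattern over the 4 libraries was nearest to that of Trp53, by the root mean square difference of centred log2 CPM, were Acat1 (0.0123), Ung (0.0147), Ndufa12 (0.0166), Gabpb1 (0.0189) and Trim32 (0.0190). Their fitted log2 fold changes were between −0.52 and −0.50. At a looser limit of 0.1, 631 of the 9611 genes compared lay that near to Trp53.

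Mdm2 (chromosome 10, 117688875 to 117710758), the ligase that degrades p53, was at 93.7 and 99.1 CPM in vehicle and 120 and 130 CPM with TAK-931. Both treated values exceeded both vehicle values, and TAK-931-2 was the higher. The fitted log2 fold change was 0.37 (SE 0.20, 95% interval −0.17 to 0.92; adjusted p = 0.342 by edgeR). Mdm2 was farther from the vehicle mean in TAK-931-2 than in TAK-931-1, as was Trp53inp1 among the other members. Set against the transcript of its substrate, the Mdm2 to Trp53 ratio per length was 0.327 and 0.368 in vehicle and 0.739 and 0.560 with TAK-931. This ratio does not depend on how the libraries are scaled, and its log2 value was higher by 0.89.

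Ccng1 (chromosome 11, 40748552 to 40755286) encodes cyclin G1, which brings the phosphatase PP2A to MDM2. Its level was 81.1 and 88.0 CPM in vehicle and 163 and 87.6 CPM with TAK-931. Only TAK-931-1 stood apart, at 1.93 times the vehicle mean, and TAK-931-2 lay between the vehicle tumours, although just above both when libraries were scaled by median-of-ratios factors or by library size only. The fitted log2 fold change of 0.57 (SE 0.36; adjusted p = 0.394 by edgeR) became 0.05 when TAK-931-1 was left out and 0.92 when TAK-931-2 was.

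Sesn1 and Sesn2 encode sestrins, stress proteins that restrain the growth kinase mTORC1 and act in amino acid sensing. In both treated tumours they lay on opposite sides of vehicle. Sesn1 (chromosome 10, 41810574 to 41908436) was at 19.0 and 23.3 CPM in vehicle and 88.9 and 61.3 CPM with TAK-931. Its treated values were 4.20 and 2.89 times the vehicle mean, far outside the spread of the vehicle pair. The fitted log2 fold change was 1.83 (SE 0.30, 95% interval 1.03 to 2.63), a 3.54-fold higher level, with an adjusted p of 0.275 by edgeR. Sesn1 had the lowest unadjusted p of the members.

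Sesn2 (chromosome 4, 132492807 to 132510456) was at 103 and 79.1 CPM in vehicle and 25.0 and 47.0 CPM with TAK-931. Both treated tumours were lower, TAK-931-1 at 0.275 and TAK-931-2 at 0.516 of the vehicle mean. The log2 fold change was −1.34 (SE 0.39, 95% interval −2.39 to −0.28; adjusted p = 0.275 by edgeR), and it was −1.88 without TAK-931-2. Within each library, the Sesn1 to Sesn2 ratio per length was 0.147 and 0.235 in vehicle and 2.82 and 1.04 with TAK-931. In vehicle tumours Sesn2 was thus the more abundant of the pair, and with TAK-931 the levels were similar or in favour of Sesn1. The log2 difference of this ratio was 3.20, with an SD of 0.48 within vehicle and 1.02 within TAK-931 (n = 2 each; exact permutation test, two-sided p = 0.333, the smallest that 2 against 2 allows). It was 1 of 4 ratios computed, chosen after the values were seen, and its adjusted exact p was 0.444, as were those of Mdm2 to Trp53 and Mdm2 to Mdm4, beside 1.0 for Trp53 to Wrap53. Sesn3, the remaining sestrin, was near the detection limit in vehicle, at 0.119 and 0.719 CPM, and at 5.58 and 1.28 CPM with TAK-931.

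Most genes of the ATF4 stress response were lower in both treated tumours, as Sesn2 was. Of 12 listed genes, 4 were lower and 1 was higher at an unadjusted p under 0.05, beside 6.55% and 11.6% of all genes. Without overlap 8 were lower and 1 higher, beside 32.7% and 30.0% of all genes, and their median log2 fold change was −1.19 beside 0.02 over all genes. The list median was −0.84 without TAK-931-1 and −2.09 without TAK-931-2. Trib3, a pseudokinase induced by ATF4, was at 74.1 and 51.4 CPM in vehicle and at 2.53 and 4.90 CPM with TAK-931, a log2 fold change of −4.08 (SE 0.47). Chac1, which degrades glutathione, and Slc7a11, the cystine transporter, had log2 fold changes of −3.70 (SE 0.67) and −2.21 (SE 0.48). Atf3, a stress transcription factor, went the other way at 2.69 (SE 0.70). Without TAK-931-1 these 3 were at −3.09, −1.80 and 1.60, and without TAK-931-2 at −4.79, −2.81 and 3.29. None of these had an adjusted p below 0.275 by edgeR, whereas by DESeq2 the adjusted p was 4.69e-11 for Trib3, 1.76e-06 for Chac1, 0.00242 for Slc7a11 and 0.0025 for Atf3. Their part in the level of Sesn2 was not tested.

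**Figure D2:**
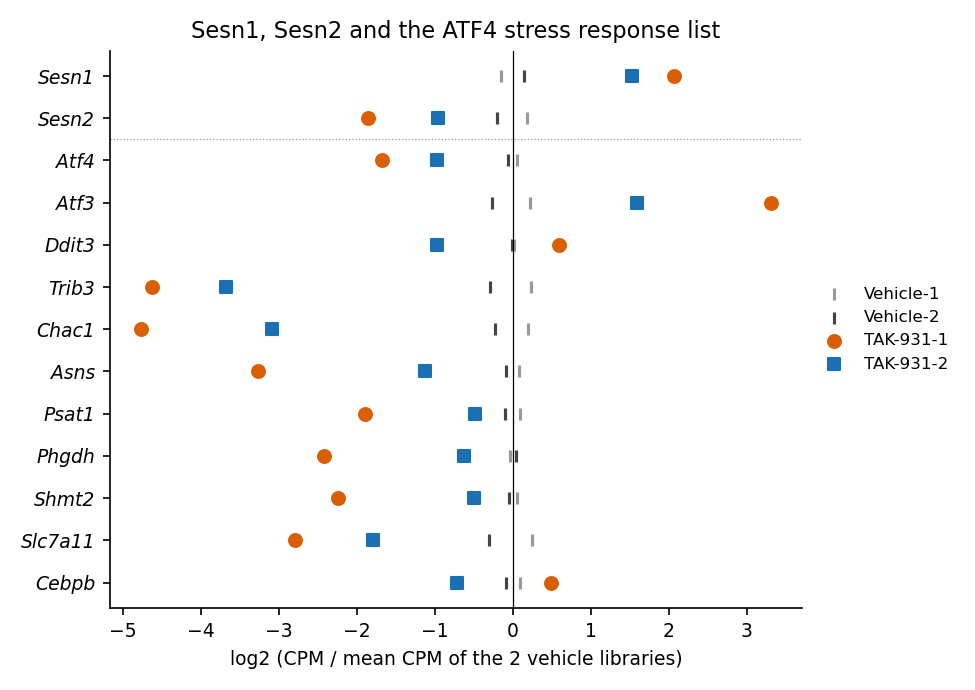
Log2 ratio of each library to the vehicle mean CPM for Sesn1, Sesn2 and the 11 genes of the ATF4 stress response list with a mean log2 CPM over 3 (ticks: vehicle, circle: TAK-931-1, square: TAK-931-2). Sesn2 lay to the left in both treated tumours with Atf4, Trib3, Chac1 and Slc7a11, and Sesn1 lay to the right with Atf3.

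Zmat3 (chromosome 3, 32334794 to 32365665) encodes a zinc finger protein that binds RNA and guides splicing. It was at 21.1 and 17.8 CPM in vehicle and 39.1 and 34.0 CPM with TAK-931. The treated tumours agreed more closely than for any other member outside Mdm2, with a log2 difference of 0.20 between them, and Zmat3 was the member whose treated pair was no wider than its vehicle pair (0.25). The log2 fold change was 0.91 (SE 0.26, 95% interval 0.22 to 1.60; adjusted p = 0.275 by edgeR). It was 0.80 without TAK-931-1 and 0.98 without TAK-931-2. Its span overlaps that of 4930429B21Rik by 177 bases, a gene with at most 10 counts in any library.

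Phlda3 and Plk2 had the largest fold changes of the members and the least even ones. Phlda3 (chromosome 1, 135766085 to 135769134), an inhibitor of AKT signalling, was at 4.51 and 4.80 CPM in vehicle and 32.0 and 8.75 CPM with TAK-931. Plk2 (chromosome 13, 110395044 to 110400843), a polo-like kinase induced by stress, was at 3.68 and 6.65 CPM in vehicle and 39.8 and 10.2 CPM with TAK-931. In both genes the treated values exceeded the vehicle values, but TAK-931-1 was at 6.89 and 7.70 times the vehicle mean and TAK-931-2 at 1.88 and 1.98 times. The log2 fold changes were 2.13 (SE 0.74) and 2.27 (SE 0.81), with an edgeR adjusted p of 0.275 for each. They were 0.91 and 0.98 without TAK-931-1 and 2.76 and 2.92 without TAK-931-2. The smallest count of any member in any library was 62, for Plk2 in Vehicle-1 (95% exact Poisson interval 47.5 to 79.5, counting error only).

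Trp53inp1 (chromosome 4, 11156441 to 11174377), which encodes a nuclear and autophagy protein that promotes p53 activity, was the member with the highest CPM. It was at 359 and 370 CPM in vehicle and 236 and 617 CPM with TAK-931. The treated tumours lay on opposite sides of the vehicle pair, at 0.647 and 1.69 times its mean. The log2 fold change of 0.23 (SE 0.51, 95% interval −1.16 to 1.61; adjusted p = 0.805 by edgeR) therefore averages a lower and a higher value. Left-out libraries gave −0.65 without TAK-931-2 and 0.76 without TAK-931-1.

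Aen (chromosome 7, 78895927 to 78908833) encodes an exonuclease that acts in apoptosis. It was at 50.6 and 45.3 CPM in vehicle and 30.6 and 43.2 CPM with TAK-931. The treated values were lower, TAK-931-2 by little, and the log2 fold change was −0.38 (SE 0.27, 95% interval −1.11 to 0.35; adjusted p = 0.432 by edgeR). It was −0.16 without TAK-931-1 and −0.67 without TAK-931-2. Trp53, Mdm2, Ccng1, Trp53inp1 and Aen thus had intervals that include no change, and these intervals also allow changes of more than 1.5-fold in each of them.

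**Figure D3:**
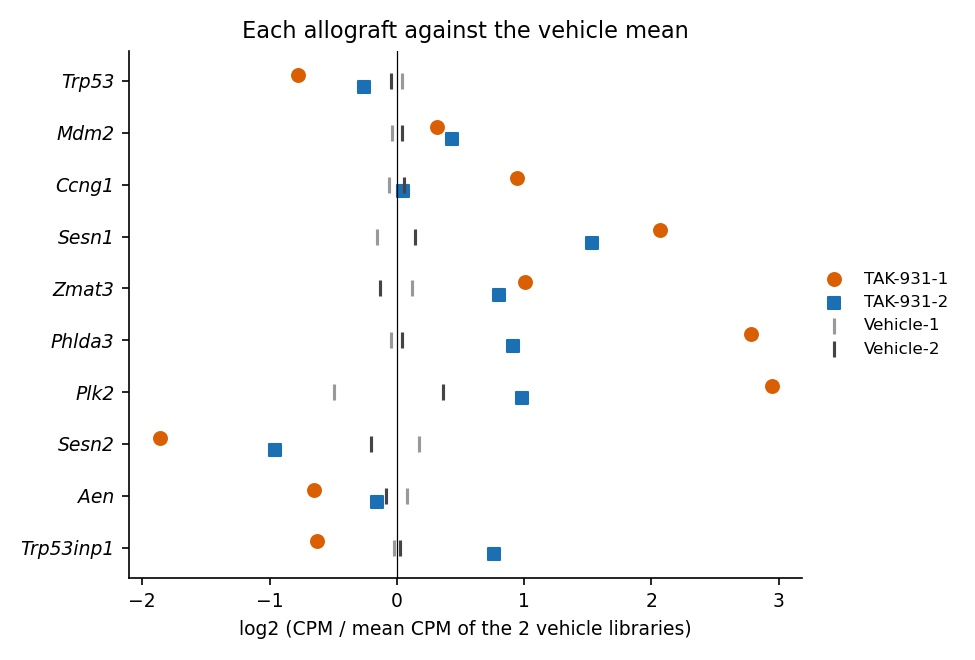
Log2 ratio of each library to the mean CPM of the vehicle libraries for the 10 members (ticks: vehicle, circle: TAK-931-1, square: TAK-931-2). The treated tumours fell on opposite sides of the vehicle mean for Trp53inp1 alone. TAK-931-1 lay farther from that mean than TAK-931-2, except for Mdm2 and Trp53inp1. How often either holds over all genes was not counted.

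The summed markers of each host cell type were highest in TAK-931-1, where 5 members, Sesn1, Zmat3, Phlda3, Plk2 and Ccng1, were also highest. So were 5626 of the 13669 genes tested, so this count does not set the members apart. All 9 of 9 T cell markers and 9 of 9 macrophage markers were higher in both treated tumours, with summed levels of 21.3 to 32.9 CPM in vehicle and 1182 and 98.3 CPM with TAK-931 for T cells. For macrophages the sums were 525 to 623, 9135 and 1630 CPM, and no marker of either list was at 0 in any library. Cd3e, a defining T cell gene, was at 1.90 and 0.36 CPM in vehicle and 136 and 7.70 CPM with TAK-931. Over all genes tested, 30.0% were higher and 32.7% lower without overlap. Among 8 fibroblast markers, 7 were higher without overlap, summing to 2072 to 2345 CPM in vehicle and to 15730 and 5788 CPM with TAK-931. The 7 endothelial markers, 3 of them higher without overlap, summed to 275 to 293 CPM in vehicle and 889 and 279 CPM with TAK-931. Skeletal muscle markers (0 of 7 without overlap) summed to 94.9 to 95.8 CPM in vehicle and 714 and 17.6 CPM with TAK-931, and Myh1 was at 129 CPM in TAK-931-1 and at a count of 0 in TAK-931-2. The 6 adipocyte markers (2 tested, 1 of them lower without overlap) summed to 45.1 to 67.9 CPM in vehicle and to 264 and 28.7 CPM with TAK-931, with Lep at 0 in 3 of the libraries and Cidec highest in Vehicle-2, at 5.81 CPM against 3.58 CPM in TAK-931-1. The part of these cells in the levels of these 5 genes and the other members was not tested.

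In TAK-931-2 the summed plasma cell and J558 markers and Trap1a were above both vehicle tumours, while Sdc1 (588 CPM), Xbp1 (972 CPM) and Mzb1 (777 CPM) of that list were below both. Without TAK-931-1, the fitted log2 fold changes of all 10 members had the sign of the full fit, and edgeR gave log2 fold changes of 1.53 for Sesn1, −0.96 for Sesn2, 0.80 for Zmat3 and 0.43 for Mdm2. In that fit 5 members passed an adjusted p of 0.05 (Sesn1, Sesn2, Zmat3, Mdm2 and Trp53inp1), against 28.7% of all genes. Without TAK-931-2 all 10 members passed, against 58.1% of all genes. Both fits take the spread from the vehicle pair and assume that the lone treated tumour varies as little, which the TAK-931 pair did not.

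**Figure D4:**
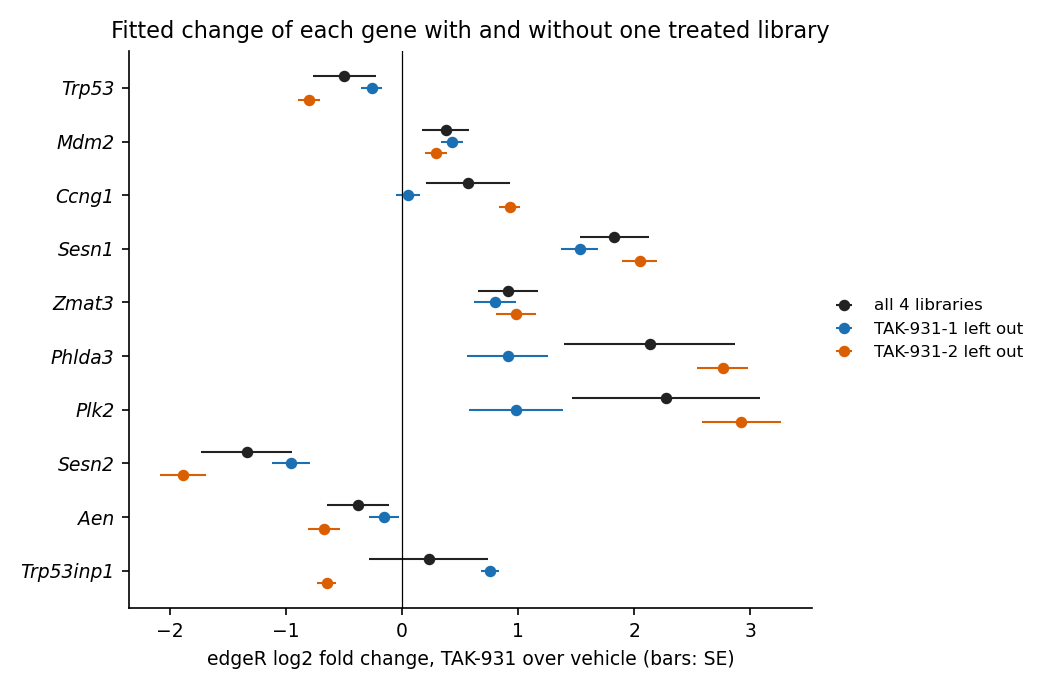
Log2 fold change of each member, TAK-931 over vehicle, in edgeR fits with all 4 libraries, without TAK-931-1 and without TAK-931-2 (points: estimates, bars: SE). Mdm2, Zmat3 and Sesn1 had similar estimates in all 3 fits, whereas Trp53inp1 changed sign, from 0.76 to −0.65.

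The rest of the p53 pathway was similarly mixed. Of 47 further genes in 3 lists, 5 were higher and 5 lower at an unadjusted p under 0.05, beside 18.1% of all genes, with a median log2 fold change of −0.03. Among 13 p53 regulators and damage kinases, 1 (Mdm4) was higher and 2 (Chek2 and Rchy1) were lower by that measure, and the median was −0.37. Mdm4, the MDM2 partner that masks p53, was at 163 and 174 CPM in vehicle and at 245 and 351 CPM with TAK-931, a log2 fold change of 0.82 (SE 0.28). Chek2, a damage checkpoint kinase, was lower at −1.04 (SE 0.37), as was Rchy1, another p53 ligase, at −0.87 (SE 0.24), while the phosphatase gene Ppm1d was at −0.64 (SE 0.43). Leaving out TAK-931-1 or TAK-931-2 gave −0.20 or −1.30 for Ppm1d, −0.69 or −1.54 for Chek2 and 1.06 or 0.52 for Mdm4. The Mdm2 to Mdm4 ratio per length was 1.37 and 1.35 in vehicle and 1.16 and 0.880 with TAK-931, so that Mdm4 was the higher of the pair in TAK-931-2.

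Among 11 p53 targets of cell death and CDK inhibition, 2 (Cdkn1a and Fas) were higher and 1 (Bbc3) was lower at an unadjusted p under 0.05, beside 18.1% of all genes in either direction, and the median was 0.28. Fas, a death receptor gene, was low in vehicle, at 0.356 and 0.480 CPM, and was at 11.8 and 2.57 CPM with TAK-931. Cdkn1a, the gene of the CDK inhibitor p21, was at 19.8 and 17.4 CPM in vehicle and 132 and 46.0 CPM with TAK-931 (log2 fold change 2.26, SE 0.58). Bbc3, which encodes the death activator PUMA, was at 72.9 and 66.7 CPM in vehicle and at 23.8 and 19.3 CPM with TAK-931 (log2 fold change −1.69, SE 0.24), nearly alike in both treated tumours. Apaf1 and Pidd1, which build caspase-activating complexes, did not pass, at 1.23 (SE 0.46) and 0.39 (SE 0.29). Without TAK-931-1, Cdkn1a was at 1.30 and Apaf1 at 0.56, and without TAK-931-2 they were at 2.81 and 1.66.

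Among 23 other p53 targets, 2 (Rap2b and Sulf2) were higher and 2 (Fdxr at −0.78 and Ckap2 at −0.87 on the log2 scale) lower at an unadjusted p under 0.05, again beside 18.1% of all genes, and the median was 0.05. Among those with a mean log2 CPM over 3, the largest changes without overlap were those of Rap2b, a small GTPase (3.11, SE 0.91), Sulf2, a heparan sulfatase (2.95, SE 0.89), Ak1, an adenylate kinase (1.83, SE 0.72), and Dcxr, a carbonyl reductase (1.20, SE 0.65), on the log2 scale, of which Ak1 and Dcxr did not pass. All 4 were highest in TAK-931-1, as Phlda3 and Plk2 were: Rap2b was at 8.18 and 7.19 CPM in vehicle and 113 and 19.8 CPM with TAK-931. Without TAK-931-1 the log2 fold changes were 1.36 for Rap2b, 1.30 for Sulf2, 0.75 for Ak1 and 0.16 for Dcxr, and without TAK-931-2 they were 3.85, 3.67, 2.42 and 1.78. Of the 11 tested paralogs of the members, 2 were higher and 0 lower at an unadjusted p under 0.05, beside 11.6% and 6.55% of all genes. These were Mdm4 and Phlda1, a relative of Phlda3 (1.42, SE 0.39), which unlike Phlda3 was highest in TAK-931-2 at 114 CPM against 58.0 CPM in TAK-931-1 and 31.4 and 33.0 CPM in vehicle. Plk3, a relative of Plk2, was at 0.81 (SE 0.41) and Ccng2, a relative of Ccng1, at −0.73 (SE 0.34). Leaving out TAK-931-1 or TAK-931-2 gave 1.82 or 0.82 for Phlda1, 0.29 or 1.17 for Plk3 and −0.38 or −1.20 for Ccng2.

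**Figure D5:**
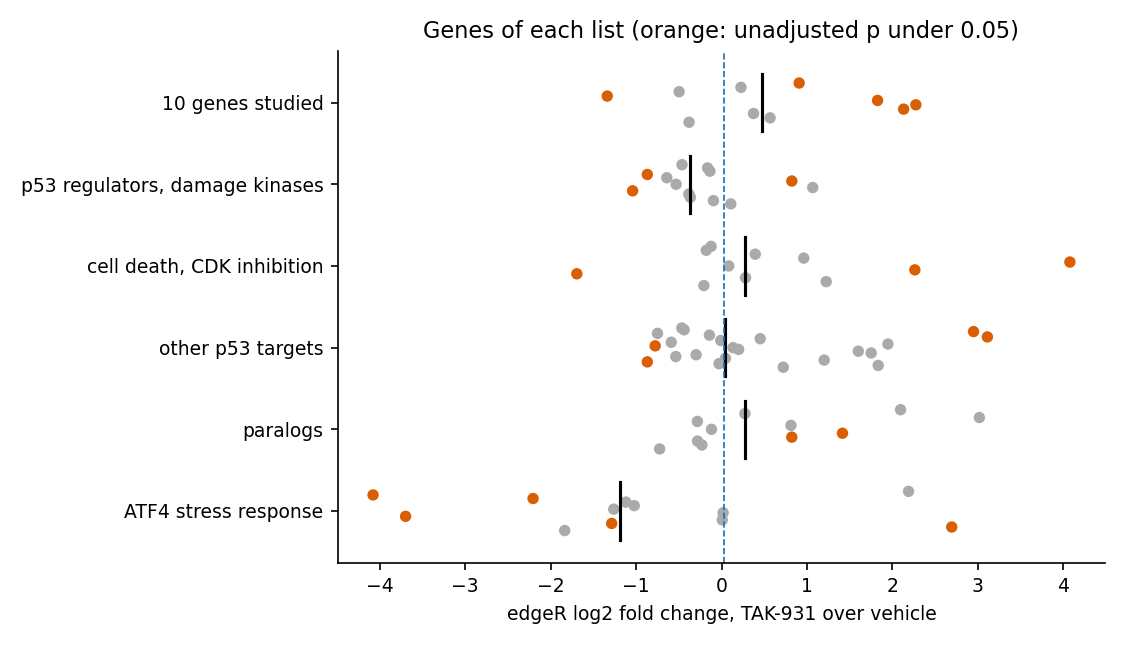
Fitted log2 fold change, TAK-931 over vehicle, of each tested gene in the 10 members and 5 other lists (orange: unadjusted p under 0.05, black bar: median of the list, dashed line: median of all genes tested). The medians were 0.47 for the members, −0.37, 0.28 and 0.05 for the 3 other p53 lists, 0.27 for the paralogs and −1.19 for the ATF4 list, and every list had genes on both sides.

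By DESeq2, 3 members had an adjusted p under 0.05, against 10.4% of genes: Sesn1 (adjusted p = 0.000326), Plk2 (0.0310) and Phlda3 (0.0356), with Sesn2 at 0.0557 and Zmat3 at 0.0977. Beside the ATF4 genes above, Bbc3 (0.00045), Rap2b (0.00197), Cdkn1a (0.00282), Sulf2 (0.00421) and Phlda1 (0.0251) of the genes named from the other lists also passed by DESeq2. By limma-voom 0 members passed, as did 0 of all genes. At an unadjusted p under 0.05 there were 3 members by limma-voom, where the share of all genes was not counted. Why the tools differed was not tested.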

How the data were processed

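Bulk RNA-seq was analysed from 4 J558 allografts, 2 per group, which the labels call independent samples, so p-values measure the spread between these samples. The authors deposited raw featureCounts counts per gene in 1 table per library, with no normalization, and the submitters' processing notes name STAR 2.6.1c and mm10. A second deposited column of another kind gave summed exon length, from which TPM was computed. Both mates of a pair appear to be counted, since only 17.9% to 23.9% of counts from 1 to 20 were odd, so intervals on counts are too narrow, and they cover counting error only. A count of 0 allows up to 3 counts, between 0.158 and 0.180 CPM.

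Genes were kept with filterByExpr (minimum count of 10), libraries were scaled by TMM, and TAK-931 was compared with vehicle by the robust quasi-likelihood test of edgeR 4.0.16 (R 4.3.3), two-sided, with Benjamini-Hochberg adjustment over 13669 genes. Per-gene intervals are 95% intervals of that fit. Alternatives were DESeq2 1.42.0, limma-voom (limma 3.58.1), other scalings and filters, halved counts, a fit without robust estimation, a replicate block and each library left out.

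The members and lists were chosen with earlier results of these data known. Besides the members, up to 4 genes of each list other than cell markers were named: those with the largest fitted log2 fold change without overlap between groups and a mean log2 CPM over 3. The 5 genes nearest to Trp53 (mean log2 CPM over 3), Wrap53, Trap1a and Cd3e were also named. Vldlr, Asns, Fas, Fdxr, Ckap2, Sdc1, Xbp1, Mzb1, Sesn3, Atf4, Myh1, Lep, Cidec and 4930429B21Rik were named after their values were seen. Wrap53 had been chosen as overlapping Trp53, which the deposited spans do not show. Strand use was not given in the sources used here, so overlapping genes and close paralogs are uncertain. Immunoglobulin chain genes were not used here. The listed Cop1 was found under its older name Rfwd2. The p53 decamer was searched by its standard consensus.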

Additional observations from a re-analysis of the deposited data

How the results depend on the processing

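The 8 members without overlap between groups (beside 62.7% of all genes) became 9 with median-of-ratios factors (beside 62.1%) and 9 with library size only (beside 61.9%), Ccng1 being added as higher. With 1 library left out they were between 8 and 10, beside 71.8% to 93.5% of all genes, since a group of 1 overlaps less often by construction. The 5 genes nearest to Trp53 were the same with a minimum mean log2 CPM of 0. The sign of each member's log2 fold change held under every alternative except for Trp53inp1, which ranged from −0.65 (without TAK-931-2) to 0.76 (without TAK-931-1). The count of members at an adjusted p under 0.05, 0 by edgeR, was 3 by DESeq2 and between 0 and 10 with 1 library left out (5 without TAK-931-1, 10 without TAK-931-2, 0 without either vehicle library). The 5 members at an unadjusted p under 0.05 by edgeR (beside 18.1% of all genes) became 3 by limma-voom and changed with 1 library left out. For these alternatives the share of all genes at that limit was not counted. Genes of the other p53, paralog and ATF4 lists at an adjusted p under 0.05 were 0 by edgeR, 11 by DESeq2 and between 0 and 51 with 1 library left out. Over all genes, 0 passed by edgeR and 0 by limma-voom, 1389 by DESeq2, and 2475 had an unadjusted p under 0.05 by edgeR. With a replicate block, 144 genes passed, of which 0 were members and 2 were genes of those lists (Trib3, adjusted p = 0.0333, and Chac1, 0.0411), and Sesn1 had an adjusted p of 0.0903. The replicate numbers are shared labels only: deviations of same-numbered libraries correlated at 0.0041 across genes. Beyond these, the cause of a changed call was not tested. A fit without a vehicle or treated library has 1 sample in that group, which is assumed to vary like the other group. Each member had at least 62 counts in every library.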
